A study of Homo sapiens with 15 samples.

Results

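Myofibril assembly and turnover factors were followed through the cardiac differentiation of H1 human embryonic stem cells, an established cell line. The 10 genes, of 48777 in the count table, were MYO18B, UNC45B, HSPB7, XIRP1, SYNPO2L and SMPX on the assembly side and ASB2, TRIM55, TRIM63 and FBXO32 on the turnover side. MYO18B and ASB2 were selected on their rise from day 9 to day 11, and the other 8 were chosen by function and listed with them, so the values of that step are given as a description, without a test. Bulk RNA was sequenced on days 0, 4, 9, 11 and 20, with 3 libraries per day. Day 9 is the day in the labels, whereas the study's methods list day 7 in its place for these harvests, so the day of every day 9 value rests on the labels. All 15 libraries came from H1 cells. Titles of days 4 to 20 name the laminins LN-521 and LN-221 by number, whereas those of day 0 name no laminin. The study's methods keep H1 cells on LN-521 and seed them on both laminins on day 0, so the coating of the day 0 libraries is not certain. Cells of days 0 and 4 were in Nutristem and had received no inducer. From day 4 the cells received RPMI with B27 without insulin, first with CHIR99021, a GSK3 inhibitor that activates Wnt signalling, and later with IWP2, which blocks Wnt secretion. The protocols in the labels disagree on the day of each change, and they give CTS B-27 from day 11 in one place only. H1 is 1 line, and other lines were not measured.

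A myofibril is the contractile cable of a striated muscle cell, built from repeated sarcomeres of actin and myosin filaments. Its parts are folded by dedicated chaperones, laid out on actin scaffolds and joined at Z-discs. Muscle ubiquitin ligases mark worn or misplaced parts for the proteasome, and several of these ligases sit on the myofibril itself. In heart muscle, loss of genes on either side is known to disturb sarcomere structure.

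On build GRCh38, the assembly genes lie at chr22:25742144-26031045 on the plus strand (MYO18B), chr17:35147817-35189345 on the plus strand (UNC45B), and, on the minus strand, chr1:16014028-16019594 (HSPB7), chr3:39183210-39192596 (XIRP1), chr10:73644881-73663803 (SYNPO2L) and chrX:21705978-21758116 (SMPX). The turnover genes lie at chr14:93934166-93976739 on the minus strand (ASB2), chr8:66126896-66175485 on the plus strand (TRIM55), chr1:26051301-26068436 on the minus strand (TRIM63) and chr8:123497889-123541206 on the minus strand (FBXO32).

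The libraries held 11990302 to 33469703 counts, with a median of 22867831. The third day 0 library had the fewest counts. Of its reads, 35% mapped uniquely, and 1 gene took 20.0% of its TPM. In the day 9 library of plate 2, 46% of reads mapped uniquely. A second day 20 library of plate 2 stood apart, with an RNA integrity number of 6.1 and 48230 genes with a count, against at most 39551 in any other library. In it, 252 autosomal genes with at most 2 counts over days 0 to 11 had a median of 7.19 reads per kilobase. That level would make up 0.157 to 1.96% of its counts for 9 members and 8.64% for FBXO32. Cardiomyocyte markers marked the later days by their summed level. It was 9.61 to 15.3 TPM over days 0 and 4, 225 to 1327 TPM on day 9, 3867 to 21434 TPM on day 11 and 5105 to 22106 TPM on day 20. All 7 were over 1 TPM in the 3 libraries of days 11 and 20, against 4, 5 and 6 of them on days 0, 4 and 9. Skeletal muscle markers, whose cells use many of the same genes, summed to at most 6.85 TPM in every library except the second day 20 library of plate 2, at 30.3 TPM. Endoderm and liver markers rose alongside: 4 of 6 were called higher from day 4 to day 9, where 24.3% of all genes tested were. They summed to 5.11 to 12.1 TPM on day 4, 305 to 1207 TPM on day 9 and 681 to 2548 TPM on day 11. On day 20 they summed to 21645, 850 and 22623 TPM in the libraries of plate 2, the second of plate 2 and plate 6. Smooth muscle markers summed to 239 to 531 TPM over days 11 and 20, and pluripotency markers went from 4624 to 6651 TPM on day 0 to 66.6 to 108 TPM on day 20. The part of other cell types in the results below was not tested. In bulk RNA, fewer cells of a type and less RNA per cell cannot be told apart.

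The 10 genes did not come on together. UNC45B, XIRP1, TRIM55 and FBXO32 were already up on day 9, HSPB7, SMPX and SYNPO2L had their first large difference between days 9 and 11, and TRIM63 and HSPB7 were on day 11 still at a small part of their day 20 levels. MYO18B and ASB2 also came on between days 9 and 11, which their selection fixed. As a share of the mean level on its own highest day, day 9 stood at 28.8% for FBXO32, 19.6% for TRIM55 and 14.0% for UNC45B. The same share was 6.02% for SYNPO2L, 2.47% for XIRP1 and at most 0.423% for the other 5 genes. On day 11, TRIM63 had reached 4.69% and HSPB7 7.35% of their day 20 means, whereas UNC45B and FBXO32 had their highest means on day 11.

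**Figure D1:**
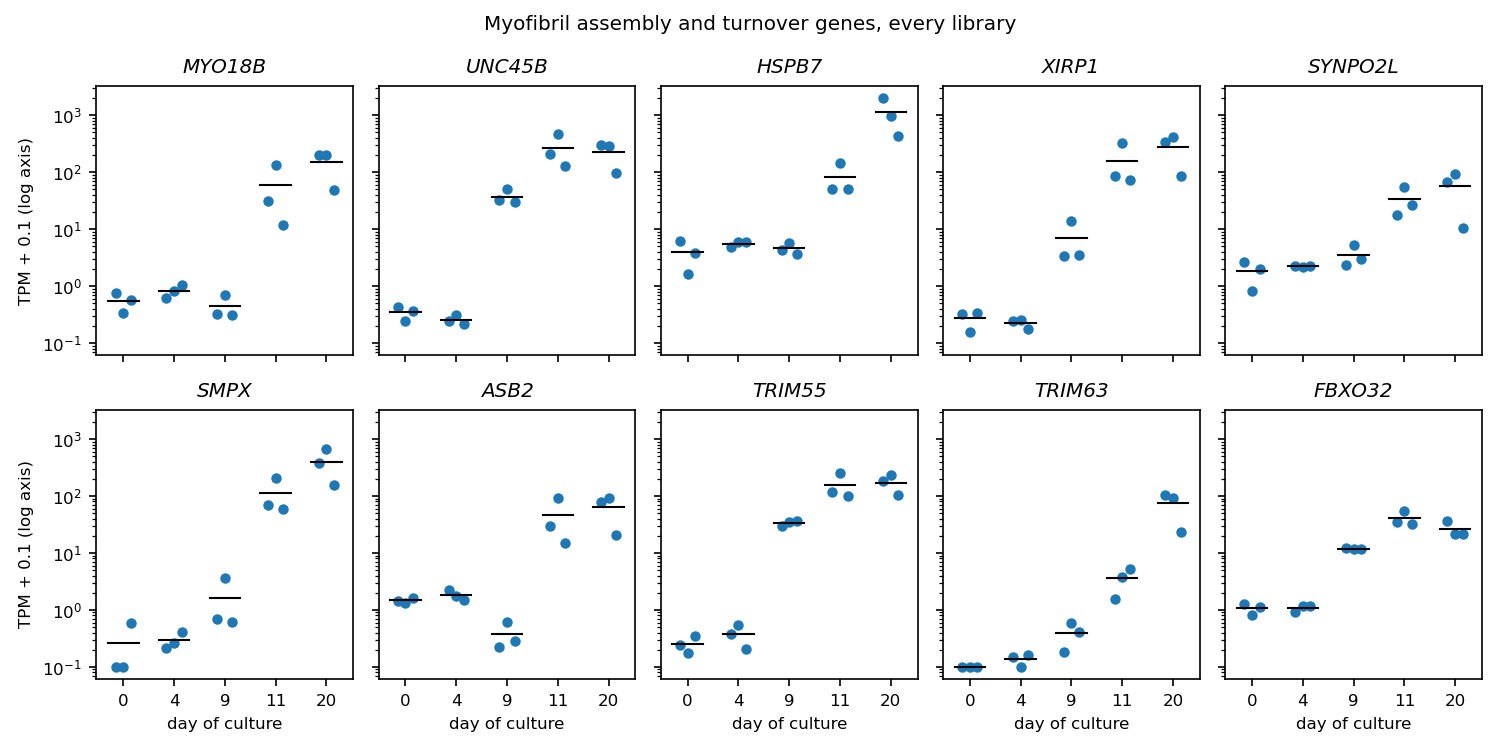
Levels of the 10 genes in every library, as TPM plus 0.1 on a log axis against the day of culture, with days evenly spaced; points are libraries and lines are means of 3. UNC45B, TRIM55 and FBXO32 stand well above their day 4 values on day 9, HSPB7 does not before day 11, and TRIM63 rises from at most 5.21 TPM on day 11 to at least 23.6 TPM on day 20.

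The first comparison covered days 0 and 4, both before induction. A difference in laminin coating between these days cannot be told apart from the days themselves. Of the 10 genes, 5 passed the filter on low counts in this pair of days, MYO18B, HSPB7, SYNPO2L, ASB2 and FBXO32, and 0 were called at an adjusted p under 0.05 in edgeR's quasi-likelihood test. Their log2 fold changes lay between -0.07 and 0.64, with standard errors of 0.30 to 0.42 and adjusted p from 0.885 to 0.967. None of the 5 had an unadjusted p under 0.05, and DESeq2 also called 0. Over all 20964 genes tested, 0% were called and 741 had an unadjusted p under 0.05, and without the filter 64 genes were called, 0 of them members. The other 5 genes were near the floor: TRIM63 had 0 counts on day 0 and 2 counts in all on day 4, and SMPX had 4 counts in all on day 4. Levels before induction were low but not equal, with HSPB7 the highest of the 10 at 5.47 ± 0.617 TPM (SD, n = 3) on day 4 and ASB2 at 1.73 ± 0.351 TPM.

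The second comparison, day 9 against day 4, covered the step from uninduced cells to early progenitors. Of the 8 genes whose p-values may be read, 4 rose and 0 fell, 2 passed the filter without a call and 2 did not pass it. Over all genes tested, 24.3% were called higher and 24.7% lower, so a call was common at this step. UNC45B, XIRP1 and TRIM55 had 2 to 8 counts in the day 4 libraries and passed the filter only through day 9, so these 3 could not have come out lower and the count of 4 is not read against that share. MYO18B and ASB2 were chosen on the level they had on day 9, and only their values are given.

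UNC45B, the muscle chaperone that folds myosin heads together with HSP90, stood at 0.149, 0.207 and 0.114 TPM in the day 4 libraries. On day 9 it stood at 31.9 TPM in plate 2, 50.2 TPM in plate 6 and 29.9 TPM in the library with no plate number. The days did not overlap, and the log2 fold change was 7.88 (SE 0.28, edgeR adjusted p = 7.72e-07). TRIM55, also called MuRF2, is a ubiquitin ligase that binds titin and microtubules in young myofibrils. It went from 0.274, 0.436 and 0.105 TPM on day 4 to 29.2, 34.9 and 36.9 TPM on day 9. Its 3 day 9 libraries lay within 1.26-fold of each other and far above day 4, with a log2 fold change of 6.94 (SE 0.31, edgeR adjusted p = 2.47e-06).

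FBXO32, or atrogin-1, is the substrate receptor of an SCF ubiquitin ligase known from muscle wasting. It was measured at 0.800, 1.07 and 1.05 TPM on day 4 and at 12.0, 11.6 and 11.4 TPM on day 9. By TPM these were the tightest day 9 values of the 10 genes, within 1.05-fold, and the log2 fold change was 3.61 (SE 0.18, edgeR adjusted p = 3.85e-06). In the day 9 library of plate 2, 1 other gene took 17.0% of all TPM, against 0.39 and 1.37% in the other day 9 libraries. TPM are shares of a fixed total, so the 1.05-fold is given on that scale only. XIRP1, the Xin protein that binds actin at intercalated discs, was at most 0.156 TPM on day 4. Its day 9 levels were 3.35, 13.8 and 3.47 TPM, so the plate 6 library was far above the other two. The log2 fold change was 5.67 (SE 0.71, edgeR adjusted p = 0.000492), and without that library it was 4.79, with an adjusted p of 8.01e-06.

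The sarcomere genes themselves were moving at this step: 7 of 9 rose, with a median log2 fold change of 3.39. Beside the shares over all genes, 24.3% higher and 24.7% lower, 3 of 11 tested folding factors and chaperones rose and 4 fell. Of 11 tested filament assembly and scaffold genes 5 rose and 5 fell, and of 16 ubiquitin ligase and proteolysis genes 3 rose and 1 fell.

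The remaining members were not called higher by day 9. HSPB7, a small heat shock protein of heart and muscle that acts on actin filaments, had 4.19, 5.71 and 3.60 TPM on day 9, within the day 0 range of 1.54 to 6.23 TPM, and its log2 fold change was -0.27 (SE 0.20, edgeR adjusted p = 0.301). SYNPO2L, an actin-binding protein of the Z-disc, had 2.24, 5.16 and 2.87 TPM on day 9 after 2.05 to 2.20 TPM on day 4. Its log2 fold change of 0.67 (SE 0.28) missed the threshold, with an edgeR adjusted p of 0.0748, and it passed at 0.0332 without the day 9 library of plate 2. SMPX, a small protein of the costamere, and TRIM63 were not tested here, with 3 to 20 and 1 to 7 counts per day 9 library. ASB2, the receptor subunit of a cullin-5 ligase that degrades filamins, was 0.121, 0.509 and 0.188 TPM on day 9, below each of its day 4 values of 2.11, 1.67 and 1.42 TPM, a log2 difference of -2.67 (SE 0.43). MYO18B, an unconventional myosin needed for sarcomere assembly, was also low, at 0.229, 0.604 and 0.209 TPM on day 9 against 0.523 to 0.952 TPM on day 4, so its days overlapped.

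Sequence upstream of the RNA start was searched for 6 of the 10 genes, HSPB7, XIRP1, SYNPO2L, SMPX, ASB2 and TRIM63. It was taken as 7 windows from the RefSeq promoter table of build GRCh38.p14. The 250 bases before the start site were searched on both strands. The other genes were not searched, so the counts of windows do not cover them. A MEF2 site, the binding sequence of the MEF2 factors of muscle, matched in 4 of the 7 windows, against 2.80% of all 35116 promoters in the table. Those 4 belong to HSPB7, XIRP1, SYNPO2L and SMPX. The CArG box, read by serum response factor, matched in 1 window, of ASB2, against 1.16% of all promoters. GATAA matched in 1 window, of XIRP1, against 20.4%, and CATTCC in 2 windows, of HSPB7 and TRIM63, against 11.9%. These matches are descriptions of letters and not bound sites. The 4 MEF2 windows are shown because their genes shared the motif and stood far higher on day 20 than on day 4, and the ASB2 window because it holds the CArG box. The MEF2 sites begin 82 bases before the start site in HSPB7, 111 in XIRP1, 164 in SYNPO2L and 93 in SMPX, and the CArG box 248 bases before it in ASB2. Capitals mark the MEF2 site or the CArG box, and every stretch is on the minus strand, read 5′ to 3′ and clear of annotated exons. The HSPB7 and SYNPO2L stretches lie within the annotated span of their genes, upstream of a RefSeq start inside it, and the other 3 lie upstream of the whole gene.
HSPB7, chr1:16018094-16018293: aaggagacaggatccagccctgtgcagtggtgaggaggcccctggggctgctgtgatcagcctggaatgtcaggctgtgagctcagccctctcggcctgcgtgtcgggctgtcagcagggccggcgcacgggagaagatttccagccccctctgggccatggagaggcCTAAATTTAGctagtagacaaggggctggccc
XIRP1, chr3:39192646-39192845: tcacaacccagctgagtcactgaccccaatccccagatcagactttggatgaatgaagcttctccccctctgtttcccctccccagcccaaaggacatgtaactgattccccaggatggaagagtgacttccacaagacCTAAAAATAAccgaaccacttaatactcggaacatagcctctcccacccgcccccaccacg
SYNPO2L, chr10:73656080-73656279: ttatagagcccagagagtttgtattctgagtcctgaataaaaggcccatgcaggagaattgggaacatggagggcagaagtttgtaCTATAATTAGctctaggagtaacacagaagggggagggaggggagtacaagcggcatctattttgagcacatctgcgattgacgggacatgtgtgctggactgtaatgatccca
SMPX, chrX:21758167-21758366: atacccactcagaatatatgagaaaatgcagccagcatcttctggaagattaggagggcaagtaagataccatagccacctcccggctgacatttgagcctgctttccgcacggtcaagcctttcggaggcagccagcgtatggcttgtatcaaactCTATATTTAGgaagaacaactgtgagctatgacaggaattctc
ASB2, chr14:93976741-93976820: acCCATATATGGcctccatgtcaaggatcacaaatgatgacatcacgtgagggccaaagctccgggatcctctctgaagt

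The third comparison was day 11 against day 9, the step the genes were chosen on. All 10 were called higher, where 1.39% of all genes tested were, and nothing is read from that count. Leaving out the day 9 library of plate 2 or the one with no plate number brought the count to 0, leaving out the day 11 library of plate 2 brought it to 5, and the number of genes called among all tested moved between 0 and 573. MYO18B was measured at 31.0, 137 and 11.8 TPM in plates 2, 5 and 6 on day 11. Every one of these lay far above day 9, though they spanned 11.6-fold among themselves, the widest spread of the 10 genes on that day. ASB2 was at 29.7, 93.4 and 14.8 TPM. The log2 differences were 7.38 (SE 1.09) for MYO18B and 7.34 (SE 0.90) for ASB2. With 1 library left out they lay between 5.93 and 7.96 for MYO18B and between 6.31 and 8.01 for ASB2.

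SMPX stood next to these 2 genes, at 69.0, 206 and 58.8 TPM on day 11 and a log2 difference of 6.16 (SE 0.82), or 5.38 to 7.50 with 1 library left out. XIRP1 differed by 4.52 (SE 0.82), or 3.53 to 5.42 with 1 left out, HSPB7 by 4.14 (SE 0.48), TRIM63 by 3.45 (SE 0.65), SYNPO2L by 3.25 (SE 0.47) and UNC45B by 2.78 (SE 0.46). The ligases already up on day 9 had the smallest log2 differences, 2.15 (SE 0.34) for TRIM55 and 1.73 (SE 0.21) for FBXO32. The day 11 libraries ranked alike across genes: plate 5 was the highest for 9 of the 10, and TRIM63 was the exception with its highest value in plate 6. The summed cardiomyocyte markers were also highest in plate 5, at 21434 TPM against 6030 and 3867 TPM in plates 2 and 6.

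**Figure D2:**
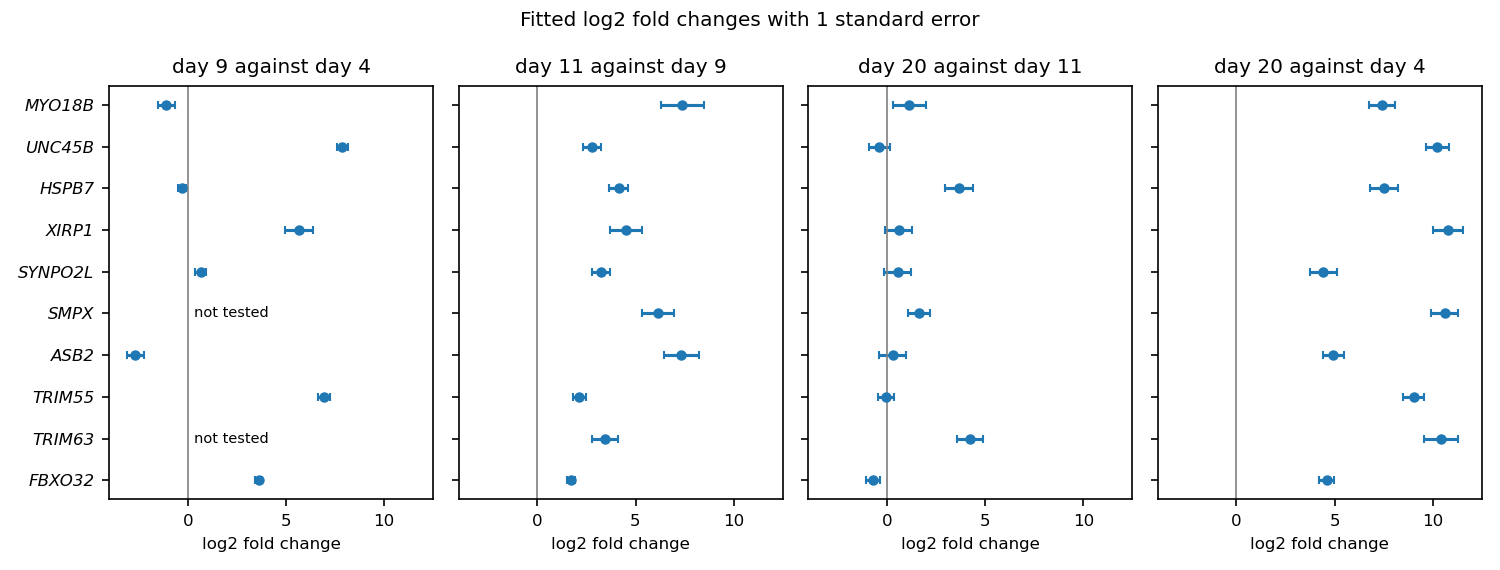
Fitted log2 fold changes of the 10 genes in 4 comparisons, with bars of 1 standard error; positive values are higher on the later day. The day 9 panel shows UNC45B, XIRP1, TRIM55 and FBXO32 apart from the others, and the panel of day 20 against day 11 shows TRIM63 at 4.24 and HSPB7 at 3.66 with the rest between -0.71 and 1.64.

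The fourth comparison, day 20 against day 11, covered later culture. Of 8 genes read, 1 rose, TRIM63, and 0 fell, where 1.12% of all genes tested were called higher and 0.435% lower. DESeq2 also called 0 lower, and none of the 8 had a lower level at an unadjusted p under 0.05. TRIM63, or MuRF1, is the ubiquitin ligase of thick filament proteins best known from muscle atrophy. It had 1.46, 3.74 and 5.21 TPM on day 11 in plates 2, 5 and 6, from 22, 50 and 84 counts. On day 20 it had 105 TPM in plate 2, 93.6 TPM in the second library of plate 2 and 23.6 TPM in plate 6. The days did not overlap, and the log2 fold change was 4.24 (SE 0.67, edgeR adjusted p = 0.0304). The size held and the call did not: with 1 library left out it lay between 3.70 and 4.67, but the adjusted p was over 0.05 without any 1 of 5 of the 6 libraries, at up to 0.161, and 0.0220 without the day 20 library of plate 6. Within the 3 sequencing lanes that both days shared, the log2 CPM difference was 2.67, 3.56 and 6.06, and with lane as a block the adjusted p was 0.0658.

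HSPB7 changed by nearly as much. It had 51.1, 147 and 50.1 TPM on day 11, and 1992, 956 and 427 TPM in the day 20 libraries of plate 2, the second of plate 2 and plate 6. The lowest day 20 library was thus above the highest of day 11, and the log2 fold change was 3.66 (SE 0.72), from 2.77 without the day 20 library of plate 2 to 4.31 without the day 11 library of plate 5. The edgeR adjusted p was 0.0526, just over the threshold, and ranged from 1.13e-06 in DESeq2 to 0.279 without the day 11 library of plate 2. Within the lanes its log2 CPM difference was 1.59, 3.67 and 5.30. By its mean of 1125 ± 796 TPM (SD, n = 3), HSPB7 was the 67th most abundant of all genes on day 20, and the highest of the 10.

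SMPX had 386, 665 and 153 TPM on day 20, overlapping its day 11 range, and its log2 fold change was 1.64 (SE 0.58, edgeR adjusted p = 0.205). The other 5 tested genes gave smaller values. XIRP1 stood at 0.61 (SE 0.68, or 0.25 to 1.56 with 1 library left out), SYNPO2L at 0.55 (SE 0.68), UNC45B at -0.38 (SE 0.55), TRIM55 at -0.02 (SE 0.40) and FBXO32 at -0.71 (SE 0.36), with adjusted p from 0.387 to 0.985. Each of the 5 had overlapping libraries on the 2 days. MYO18B was at 198, 199 and 48.5 TPM on day 20 and ASB2 at 79.7, 92.5 and 20.8 TPM, both overlapping day 11, with log2 differences of 1.15 (SE 0.85, or 0.65 to 2.57 with 1 library left out) and 0.31 (SE 0.69).

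All 10 genes had their lowest day 20 value in plate 6, by 1.75-fold below the highest library for FBXO32 and up to 9.08-fold for SYNPO2L. The plate 6 library also had the lowest sum of cardiomyocyte markers on that day, 5105 TPM, against 22106 and 21492 TPM in the plate 2 libraries. Each gene was therefore also set against 9 sarcomere genes of the same library, TNNT2, TNNC1, TNNI1, ACTN2, MYH6, MYL4, MYL7, MYBPC3 and TTN. The geometric mean of these was 378, 1127 and 327 TPM on day 11 and 1799, 1991 and 489 TPM on day 20.

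On this scale the genes separated. TRIM63 was 0.386, 0.332 and 1.59% of the sarcomere level in plates 2, 5 and 6 on day 11, and 5.83, 4.70 and 4.82% on day 20. The day 20 values lay close together and above all of day 11, a log2 difference of 3.11. HSPB7 went from 13.5, 13.0 and 15.3% to 111, 48.0 and 87.2%, a log2 difference of 2.48. SMPX, at 18.3, 18.3 and 18.0% on day 11, was nearly level across plates and stood at 21.5, 33.4 and 31.3% on day 20, a difference of 0.63.

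The chaperone UNC45B went the other way, from 54.9, 41.0 and 39.7% of the sarcomere level to 16.4, 14.6 and 20.1%, a log2 difference of -1.40. FBXO32 differed by -1.85, from 9.26, 4.79 and 9.91% to 2.05, 1.06 and 4.32%. TRIM55 went from 31.4, 22.1 and 30.5% to 10.2, 11.6 and 20.9%, a difference of -1.04. SYNPO2L differed by -0.80 and XIRP1 by -0.35. For each of these 5 genes, every day 20 library lay below every day 11 library.

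In the 8 genes read, 3 were thus higher and 5 lower in all day 20 libraries than in all day 11 libraries. Over 27218 genes with a value in all 6 libraries, 1.61% were higher and 7.93% lower in this way. The median gene differed by -0.98 on this log2 scale, which is relative to the sarcomere genes. Those genes had a median log2 fold change of 0.71 from day 11 to day 20. Of the 9, 0 were called, where 1.12% of all genes tested were called higher, and their geometric means overlapped between the days. The exact two-sided permutation test gave p = 0.1 for each of the 8, which is the smallest that 3 against 3 libraries allow, and 0.1 after adjustment over the 8. With TNNT2 alone as the reference, 4 of the 8 did not overlap, TRIM63, HSPB7 and SMPX above and UNC45B below. The share over all genes was not computed for that reference, so nothing is read from this count. MYO18B, at 8.20, 12.1 and 3.60% on day 11 and 11.0, 9.98 and 9.92% on day 20, and ASB2, at 7.85, 8.29 and 4.52% and then 4.43, 4.64 and 4.25%, overlapped.

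**Figure D3:**
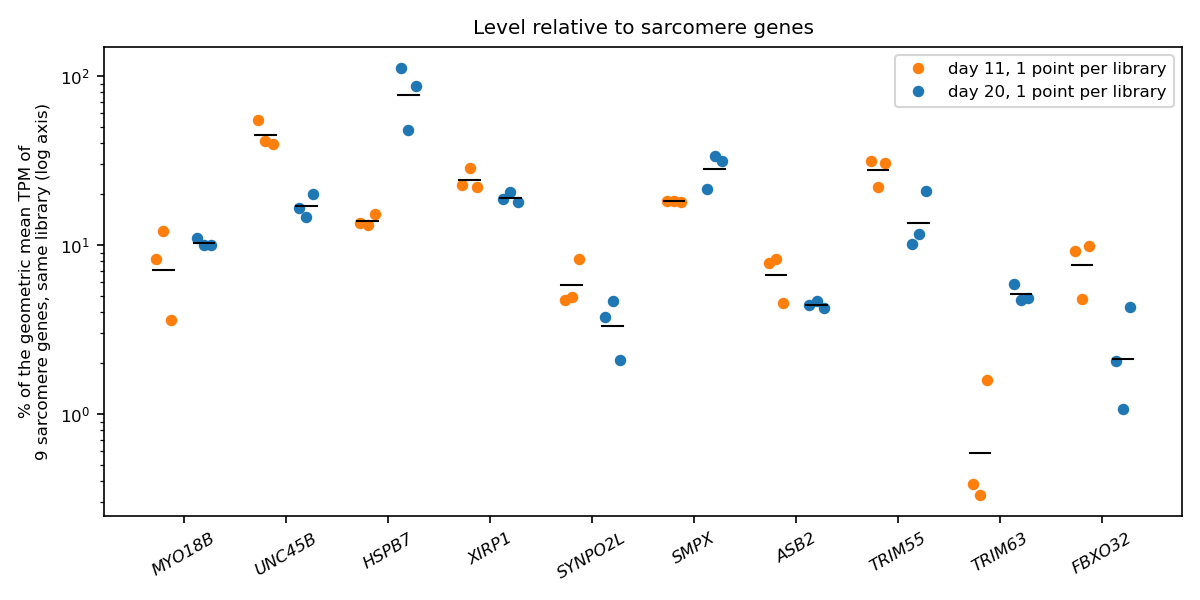
Level of each gene as a percentage of the geometric mean TPM of 9 sarcomere genes in the same library, on a log axis, for the 3 libraries of day 11 and the 3 of day 20; lines are geometric means. TRIM63, HSPB7 and SMPX lie higher on day 20, UNC45B, TRIM55, FBXO32, SYNPO2L and XIRP1 lie lower, and MYO18B and ASB2 overlap.

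The balance of the titin-binding ligases TRIM63 and TRIM55 differed between the days. TRIM63 was 0.269 to 1.43% of TRIM55 by TPM on day 9 and 1.23 to 5.23% on day 11. On day 20 it was 57.4, 40.7 and 23.1%. TRIM55 remained the more abundant in every library from day 9 on.

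The fifth comparison, day 20 against day 4, used no library of days 9 or 11, the days behind the selection of MYO18B and ASB2. The genes were still chosen with earlier results of these data known, so it is not independent of that choice. All 10 rose, where 17.6% of all genes tested were called higher and 13.3% lower. UNC45B, XIRP1, SMPX, TRIM55 and TRIM63 had 0 to 8 counts in the day 4 libraries and passed the filter only through day 20, so these 5 could not have come out lower and the count of 10 is not read against that share. MYO18B, HSPB7, SYNPO2L, ASB2 and FBXO32 had 42 to 154 counts in each day 4 library and could have fallen, and all 5 rose. MYO18B and ASB2 among these were selected on their rise to day 11, so their calls are not read as support. On the assembly side, XIRP1 rose by a log2 fold change of 10.77 (SE 0.76), SMPX by 10.61 (SE 0.69), UNC45B by 10.24 (SE 0.61), HSPB7 by 7.50 (SE 0.72), MYO18B by 7.41 (SE 0.65) and SYNPO2L by 4.43 (SE 0.70). On the turnover side, the values were 10.41 (SE 0.88) for TRIM63, 9.02 (SE 0.52) for TRIM55, 4.94 (SE 0.55) for ASB2 and 4.59 (SE 0.40) for FBXO32. The edgeR adjusted p ran from 0.000242 for TRIM55 to 0.00415 for SYNPO2L, and all 10 were also called without the second day 20 library of plate 2. For TRIM63, with 2 counts on day 4 and 2892 on day 20, the ratio of pooled CPM was 1872, with a 95% exact counting interval from 518 to 15466 that covers counting error only. For SMPX, with 4 and 5917 counts, it was 1915, with an interval from 748 to 7031. Within the 3 lanes shared by these days, all 10 genes were higher on day 20 in 3 of 3 lanes.

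By mean TPM on day 20, the order after HSPB7 was SMPX at 402 ± 256, XIRP1 at 278 ± 169, UNC45B at 228 ± 113, TRIM55 at 172 ± 64.8 and MYO18B at 148 ± 86.6 (SD, n = 3 each). Then came TRIM63 at 74.1 ± 44.1, ASB2 at 64.3 ± 38.3, SYNPO2L at 56.8 ± 42.3 and FBXO32 at 26.4 ± 9.12. Every gene in this order overlapped its neighbours. On day 9 the order was another, with UNC45B at 37.3 ± 11.2, TRIM55 at 33.7 ± 3.98 and FBXO32 at 11.6 ± 0.299, the first 2 overlapping and FBXO32 below both. XIRP1 was next at 6.87 ± 5.99 and overlapped FBXO32.

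Paralogs of the members differed from them in level or in part of their course. UNC45A, the general form of the myosin chaperone, was at 51.2 ± 3.03 TPM on day 4 and 32.1 ± 12.0 TPM on day 20, a log2 fold change of -0.82 (SE 0.40, edgeR adjusted p = 0.164), so UNC45B went from far below UNC45A to far above it. MYO18A, the widely expressed paralog of MYO18B, rose from 37.4 ± 3.15 to 152 ± 63.3 TPM over the same days (log2 fold change 1.79, SE 0.35, edgeR adjusted p = 0.00866). Its lowest mean was on day 9, at 27.9 TPM, as was that of MYO18B, and it stood at 56.6 TPM on day 11. SYNPO2 fell by day 9 (log2 fold change -2.19, SE 0.34, edgeR adjusted p = 0.00101) while SYNPO2L was not called. From day 9 to day 11 both stood higher, by log2 differences of 3.53 (SE 0.57) for SYNPO2 and 3.25 (SE 0.47) for SYNPO2L.

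From day 11 to day 20 SYNPO2 rose, to 21.4 ± 12.3 TPM (log2 fold change 3.33, SE 0.62, edgeR adjusted p = 0.0469). TRIM54, the third MuRF ligase, was already at 13.7 ± 2.18 TPM on day 0, when TRIM63 had no count, and rose from day 4 to day 20 by a log2 fold change of 2.25 (SE 0.54, edgeR adjusted p = 0.0192). FBXO25, an F-box relative of FBXO32, rose by 1.23 (SE 0.35, edgeR adjusted p = 0.0355) over the same days. XIRP2 stayed at 4.30 TPM or less in every library, and its log2 fold change of 2.31 (SE 1.09) was not called (edgeR adjusted p = 0.152).

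**Figure D4:**
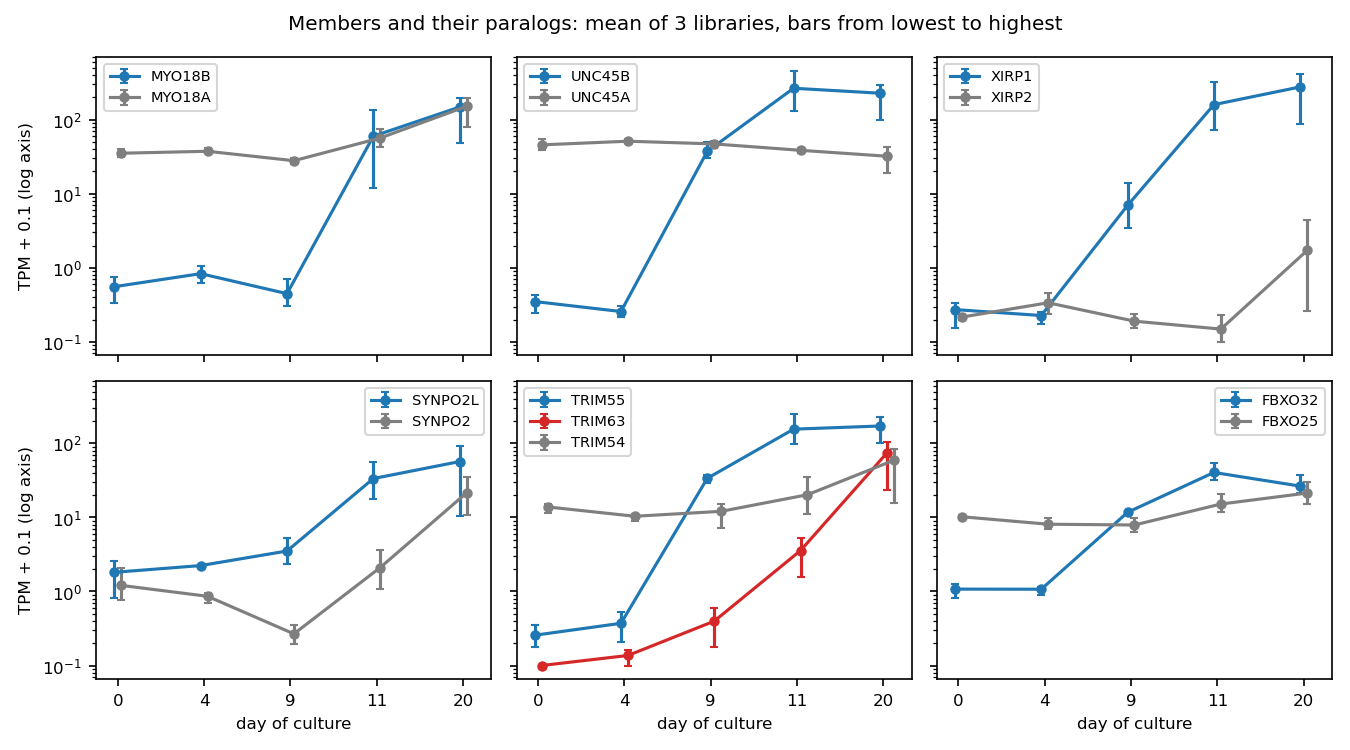
Members and their paralogs over the 5 days, evenly spaced, as mean TPM plus 0.1 of 3 libraries on a log axis, with bars from the lowest to the highest library. On day 0 UNC45A, MYO18A, TRIM54 and FBXO25 had means of 10.1 TPM or more, whereas UNC45B, MYO18B, TRIM55, TRIM63 and FBXO32 began at 0.977 TPM or less.

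Other genes of the same processes were read from lists chosen with earlier results of these data known. Between days 4 and 20, 7 of 12 tested folding factors and chaperones rose and 2 fell, with a median log2 fold change of 2.07 against 0.11 over all genes tested, where 17.6% of genes were called higher and 13.3% lower. Some of the listed genes were likewise near 0 on day 4 and were tested only through day 20. The 2 that fell, HSP90AA1 and DNAJB6, named after their values were seen, are a share close to that of all genes. The largest changes were in SMYD1, a methyltransferase that works with the myosin chaperones (10.10, SE 0.68), and in the small heat shock proteins HSPB3 (8.50, SE 1.01), CRYAB (4.91, SE 0.69) and HSPB8 (3.41, SE 0.63). Of 13 tested filament assembly and scaffold genes, 10 rose and 1, the formin FHOD1, fell, with a median of 3.67 and with CSRP3 (11.49, SE 1.21), LMOD2 (9.09, SE 1.11) and TMOD1 (5.92, SE 0.62) among the largest. Of 20 ubiquitin ligase and proteolysis genes, 10 rose and 0 fell, with a median of 0.64, led by KLHL41 (7.93, SE 0.69), FBXO40 (6.14, SE 0.69) and the muscle calpain CAPN3 (5.89, SE 0.70).

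From day 11 to day 20, the step at which TRIM63 rose, 1 of the 13 folding genes, 2 of the 14 scaffold genes and 2 of the 20 ligase and proteolysis genes were called higher and 0 lower. Over all genes tested, 1.12% were called higher and 0.435% lower, so a count of 0 lower in lists of this size says little. The list medians were 0.76, 2.24 and -0.01, against 0.07 over all genes tested. The scaffold genes were SYNPO2 and CFL2, a muscle cofilin (log2 fold change 1.51, SE 0.26, edgeR adjusted p = 0.0371). HSPB3 rose from at most 1.09 TPM to at least 78.8 TPM (log2 fold change 7.45, SE 0.56, edgeR adjusted p = 0.0124). FBXO40, a muscle F-box protein, rose from at most 0.877 TPM to at least 9.47 TPM (5.74, SE 0.79, edgeR adjusted p = 0.0222). HSPB3 and FBXO40 had means of 0.189 and 0.664 CPM on day 11, and neither passed the filter in day 11 against day 9. Both were tested here only through day 20 and could not have come out lower. KLHL41, a kelch protein of cullin-3 ligases, rose by 2.92 (SE 0.44, edgeR adjusted p = 0.0282).

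The genes whose pattern was most like the members were found by correlating the log2 CPM of 16210 other protein-coding genes with the mean of the members' standardised log2 CPM over the 15 libraries. The closest were MYH6 (Pearson r = 0.990), TGM2 (0.990), LDB3 (0.987), TNNC1 (0.986) and ACTN2 (0.985), of which MYH6, TNNC1 and ACTN2 are also among the 9 sarcomere genes. MYH6 is the atrial myosin heavy chain, LDB3 a Z-disc scaffold and TGM2 a transglutaminase. The libraries share days, so these r describe the course over days. Among the members, r ran from 0.841 for ASB2 to 0.990 for SMPX, and the mean includes each of them and the values MYO18B and ASB2 were selected on.

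Exons of 4 members overlap other annotated genes, by 2.09% of exon length in MYO18B, 2.03% in UNC45B, 2.98% in SYNPO2L and 2.13% in ASB2, on the opposite strand except for UNC45B. Whether strand was used in counting is not given in the sources used here, so reads in these stretches cannot be told apart.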

How the data were processed

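RNA of 15 libraries of H1 cells was sequenced by the authors as paired ends from a ribosomal RNA depleted, stranded library. Per the labels, reads were aligned to GRCh38 (Ensembl 79) with STAR 2.5.2b and counted per gene with featureCounts 1.5.1, after which the authors removed ribosomal and mitochondrial genes. The deposited table holds raw counts for 48777 genes, and a second table holds TPM that, per the labels, the authors derived from those counts, using gene lengths not given in the sources used here. A deposited table of library metrics gives the lane, the RNA integrity score (RIN) and the fraction of reads mapped uniquely. Of the gene identifiers, 46872 matched GENCODE v44, from which symbols and coordinates were taken.

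Groups followed the labelled day. Pairs of days were compared in edgeR 4.0.16 (R 4.3.3) with TMM scaling, filterByExpr at a minimum count of 10, robust quasi-likelihood fits of the 6 libraries and Benjamini-Hochberg adjustment over all genes tested, at a threshold of 0.05. Tests were two-sided, and the fit was tested on simulated data. TPM were used for levels, for comparisons between genes and for ratios to sarcomere genes, the latter with exact permutation tests. Log2 CPM used a prior count of 2. Replicates were numbered in accession order, plates come from the titles, and 2 day 20 libraries share plate 2. The labels call the 3 libraries of a day biological replicates without naming separate differentiations, so p-values measure the spread between these libraries. Alternatives were DESeq2 1.42.0, 2 other scalings, no filter, 1 fit of all 15 libraries, each library left out, and lane or plate as a block. The genes and lists were chosen with earlier results of these data known. The text names the 10 genes, 6 paralogs, at most 4 called genes of largest change per list, and the 5 genes most alike in pattern. Intervals cover counting error only.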

Additional observations from a re-analysis of the deposited data

How the results depend on the processing

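The 4 calls of day 9 against day 4 and the 10 of day 20 against day 4 held under every alternative run, and day 4 against day 0 gave 0 members called under each. Of 8 genes read in day 20 against day 11, 2 were called by DESeq2, without the filter and with all 15 libraries in one fit (TRIM63 and HSPB7), 0 with lane as a block and 0 to 2 with a library left out. For day 11 against day 9, 4 of the 10 were called without the filter and 0 to 9 with a library left out. Members that did not overlap relative to sarcomere genes numbered 5 with the median of the reference genes and 4 with TNNT2 alone. No share over all genes was computed for either setting. Signs changed only for members that were not called or not tested. From day 11 to day 20, TRIM55 was 0.0891 with upper-quartile scaling, 0.0683 with lane as a block and -0.27 to 0.42 with a library left out, UNC45B -0.78 to 0.22 and ASB2 -0.12 to 1.29. From day 0 to day 4, SYNPO2L was -0.14 to 0.58 and FBXO32 -0.29 to 0.10 with a library left out. Genes called among all tested in day 20 against day 11 were 332, but 1871 in DESeq2, 3132 with all 15 libraries in one fit, 137 with lane as a block and 0 to 510 with a library left out. In day 11 against day 9 they were 495, but 1674 in DESeq2, 1016 without the filter and 0 to 573 with a library left out. In day 9 against day 4 they were 10406, but 6209 with all 15 libraries, and in day 20 against day 4 they were 6789, but 10265 with all 15 libraries and 3027 to 10635 with a library left out, lowest without the day 4 library of plate 2 and highest without the second day 20 library of plate 2. In day 4 against day 0 they were 0, but 64 without the filter. The causes were not tested. Plates 2 and 6 are shared by days 9, 11 and 20. Deviations from the day means correlated at 0.10 and 0.30 for same-plate libraries of days 9 and 11, and between -0.14 and 0.35 for days 11 and 20. The 0.30 and the 0.35 were both from plate 6. There are fewer than 3 separate pairs, and whether libraries of a plate share more than its number was not tested. With the plate as a replicate block, 8 of 10 members and 1971 genes were called in day 11 against day 9, and 0 members and 3 genes in day 20 against day 11, where TRIM55 was 0.35 and TRIM63 4.10 (edgeR adjusted p = 0.164). Depth limits TRIM63 and SMPX before day 11, at 20 counts or fewer per library.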
